A study of Mus musculus with 2 samples.

Results

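Oxidative phosphorylation is carried out by 5 protein complexes of the inner mitochondrial membrane, and most of their subunits are encoded by nuclear genes. The genes described here are the 82 protein-coding genes whose mouse symbols begin with the names of these subunits (Nduf with a, b, c, s or v and a digit, Sdha to Sdhd, Uqcr, Cox4 to Cox8 with a, b or c, and Atp5). They were chosen by name and not by level, from 21474 protein-coding genes with a symbol and 43346 Ensembl genes in both gene tables. By complex they comprise 37 genes of complex I, 4 of complex II, 8 of complex III, 16 of complex IV and 17 of complex V. An 83rd entry of the GENCODE M21 annotation that matched the names, an additional Atp5o entry, was not analysed here.

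RNA was measured by total RNA sequencing in 2 libraries of hindbrain from B6NCrl mouse embryos at day 12.5 (e12.5), with no treatment, genetic change or other group named in the labels. A separate pool of male and female embryos gave each library (120 embryos for replicate 1, 88 for replicate 2), so embryo-to-embryo differences are averaged within a library. Levels are in TPM, a transcript abundance scaled per length to a fixed total in each library, and a difference between the 2 libraries measures only the spread between these pools and their libraries. Replicates 1 and 2 held 31633169 and 29766460 expected counts. All 8 hindbrain markers examined, led by Meis1, Hoxb2 and Hoxa2, were at 1 TPM or more in both libraries, as were 2 of 5 forebrain markers.

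Complex I passes electrons from NADH to ubiquinone, and complex II does so from succinate. Complex III hands them on to cytochrome c, complex IV passes them to oxygen, and complex V is the ATP synthase that uses the resulting proton gradient. Several complex IV subunits have a widely expressed isoform and a second gene known mainly from heart and skeletal muscle or from testis, so the isoform in use differs by tissue. Factors such as NRF1 and GABP, an ETS family protein, are known to bind promoters of many of these genes.

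The promoters of 4 such pairs of complex IV genes are shown because the 2 genes of each pair stood far apart in level in both libraries. They are all the complex IV pairs in which the second gene held under 5% of the pair's TPM and RefSeq gave a window for both genes, 4 of 6 pairs. Each line gives 280 bases of RefSeq sequence (GRCm38.p6), 250 before the annotated start and 30 from it. Capitals mark matches on either strand to 4 short motifs, the NRF1 half-site GCGCANGC, the ETS site CCGGAAG, the YY1 site AAGATGG and the TATA box TATAAA.
Cox6b1 (chr7:30626085-30626364, minus strand): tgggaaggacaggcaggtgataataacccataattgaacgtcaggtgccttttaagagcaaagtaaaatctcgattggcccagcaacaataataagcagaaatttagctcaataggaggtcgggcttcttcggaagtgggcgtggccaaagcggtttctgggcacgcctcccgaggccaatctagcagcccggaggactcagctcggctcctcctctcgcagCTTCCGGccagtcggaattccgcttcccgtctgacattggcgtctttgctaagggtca
Cox6b2 (chr7:4753065-4753344, minus strand): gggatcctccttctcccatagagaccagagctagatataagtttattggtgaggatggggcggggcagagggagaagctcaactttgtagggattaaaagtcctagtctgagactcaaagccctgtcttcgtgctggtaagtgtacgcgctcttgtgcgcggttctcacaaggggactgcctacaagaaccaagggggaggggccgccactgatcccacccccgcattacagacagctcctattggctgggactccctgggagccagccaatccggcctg
Cox7a2 (chr9:79759824-79760103, minus strand): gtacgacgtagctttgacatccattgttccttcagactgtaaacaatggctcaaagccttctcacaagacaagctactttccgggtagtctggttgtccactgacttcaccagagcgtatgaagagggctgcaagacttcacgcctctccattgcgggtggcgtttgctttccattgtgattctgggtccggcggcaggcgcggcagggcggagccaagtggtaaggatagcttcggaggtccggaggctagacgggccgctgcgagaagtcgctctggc
Cox7a1 (chr7:30183921-30184200, plus strand): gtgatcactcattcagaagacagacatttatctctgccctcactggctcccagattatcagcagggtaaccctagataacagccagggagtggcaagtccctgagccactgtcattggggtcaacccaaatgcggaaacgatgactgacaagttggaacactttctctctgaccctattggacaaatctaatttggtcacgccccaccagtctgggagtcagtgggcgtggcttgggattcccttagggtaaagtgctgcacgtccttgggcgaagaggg
Cox7b (chrX:106015450-106015729, plus strand): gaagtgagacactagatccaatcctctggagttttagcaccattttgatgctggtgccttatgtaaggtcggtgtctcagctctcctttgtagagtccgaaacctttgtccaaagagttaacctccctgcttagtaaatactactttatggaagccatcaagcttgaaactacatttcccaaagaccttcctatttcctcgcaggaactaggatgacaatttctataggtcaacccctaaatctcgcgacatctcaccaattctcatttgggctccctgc
Cox7b2 (chr5:71548176-71548455, minus strand): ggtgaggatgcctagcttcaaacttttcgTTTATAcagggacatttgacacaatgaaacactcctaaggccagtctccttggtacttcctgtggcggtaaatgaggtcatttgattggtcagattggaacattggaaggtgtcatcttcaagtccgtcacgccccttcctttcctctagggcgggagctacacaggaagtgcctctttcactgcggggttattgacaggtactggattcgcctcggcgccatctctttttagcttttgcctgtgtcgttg
Cox8a (chr19:7217587-7217866, minus strand): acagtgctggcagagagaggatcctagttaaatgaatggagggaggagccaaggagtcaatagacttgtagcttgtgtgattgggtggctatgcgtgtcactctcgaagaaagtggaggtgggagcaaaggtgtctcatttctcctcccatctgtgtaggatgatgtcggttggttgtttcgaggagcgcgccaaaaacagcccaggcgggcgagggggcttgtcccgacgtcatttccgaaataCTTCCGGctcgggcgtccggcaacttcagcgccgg
Cox8b (chr7:140900417-140900696, minus strand): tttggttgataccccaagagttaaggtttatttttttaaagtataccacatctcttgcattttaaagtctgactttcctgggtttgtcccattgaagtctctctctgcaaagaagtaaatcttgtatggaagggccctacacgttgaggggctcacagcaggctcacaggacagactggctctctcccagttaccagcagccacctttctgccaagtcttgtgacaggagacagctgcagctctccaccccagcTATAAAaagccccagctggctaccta
Among the printed bases the ETS letters stood in Cox6b1 and Cox8a, and the TATA letters in Cox7b2 and Cox8b. No capitals occur in Cox6b2, Cox7a2, Cox7a1 or Cox7b, so the letters did not separate the higher from the lower gene in every pair.

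Over all members, 68 of 82 had a RefSeq window of 300 bases (250 before and 50 after a start), 73 windows in all. The NRF1 half-site was found in 34.25% of these windows and in 9.954% of all 32851 windows. Over the protein-coding windows the share was 13.21%. The ETS site was found in 21.92% of member windows, 8.858% of all windows and 11.56% of protein-coding windows. For the YY1 site these shares were 15.07%, 6.338% and 6.241%. The TATA letters stood in 10.96% of member windows, 13.62% of all windows and 12.6% of protein-coding windows. Median GC content, which bears on how often GC-rich letters occur, was 57.33% in member windows, 52.67% in all windows and 56.33% in protein-coding windows. These matches describe the letters only.

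The members were among the more abundant RNAs of the hindbrain. Together they held 2.528% of the TPM of replicate 1 and 2.301% of that of replicate 2 (2.415 ± 0.161%, SD, n = 2). In expected counts, where short genes weigh less, the shares were 1.059% (95% Wilson interval 1.055 to 1.062) and 0.9714% (0.9679 to 0.975). These intervals cover counting error only. The median member stood at 272.7 and 238.7 TPM, while the median protein-coding gene at 1 TPM or more in both libraries stood at 21.25 and 21.67 TPM. Of the 82 members, 79 reached 1 TPM in both libraries and 70 reached 100 TPM, and 68 had a mean above 115.6 TPM, the level that bounds the top 10% of the 13520 detected protein-coding genes. In tissue RNA, fewer cells of a type and less RNA per cell cannot be told apart.

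**Figure D1:**
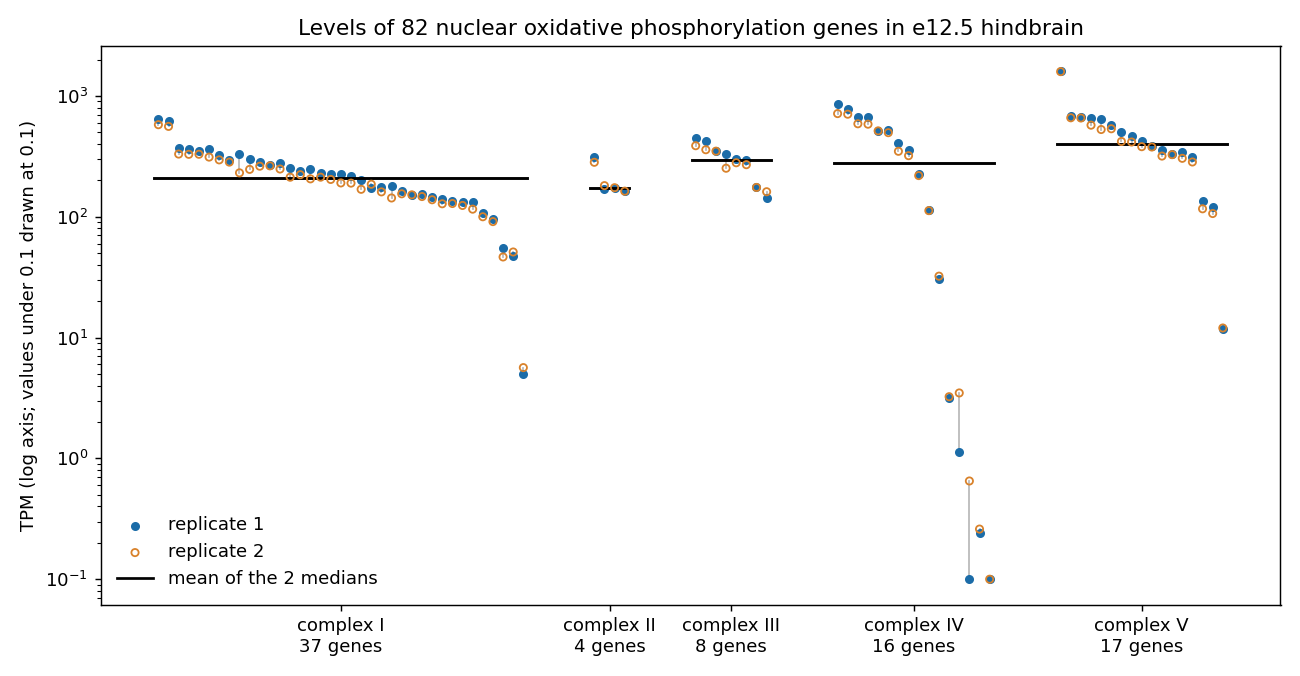
TPM of each of the 82 genes (log axis, values under 0.1 drawn at 0.1) in replicate 1 (filled) and replicate 2 (open), ordered by mean level within complexes I to V, with black lines at the mean of the 2 medians of each complex. Most genes lie between 100 and 1000 TPM, Atp5b lies highest at 1597.43 and 1588.51 TPM, and the lowest genes belong to complex IV.

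Complex V had the highest median level, 426.1 and 380.0 TPM in replicates 1 and 2 (403 ± 32.6, SD, n = 2). Complex III followed at 315.3 and 274.7 TPM (295 ± 28.7) and complex IV at 290.9 and 269.6 TPM (280 ± 15.03). The order of these 2 depended on the lowest genes: without members at a mean under 1 TPM, complex IV stood at 379.5 TPM, above III. With all members, the medians of complexes III and IV overlapped in range across the libraries, though III was higher in each library. Complex V lay above both in each library. Complex I was at 225.9 and 190.4 TPM (208 ± 25.1) and complex II at 171.1 and 177.4 TPM (174 ± 4.42). The median of I was the higher one in each library, while the genes of these 2 complexes overlapped in level. Mean levels ran from 5.3 to 611.86 TPM in I and from 163.5 to 297.165 TPM in II. The complexes also differ in the length over which a fragment can start, from a median of 431.4 nt in IV to 1115 nt in II in replicate 1. Over the 76 members at a mean of 10 TPM or more, this length and mean TPM had Spearman's rho of -0.456.

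In complex I the highest genes were Ndufa4, Ndufc1 and Ndufa1. Ndufa4, whose protein is now counted as a subunit of complex IV although its symbol places it in complex I, was at 645.99 and 577.73 TPM. Ndufc1, a small accessory subunit, was at 614.05 and 559.27 TPM, and Ndufa1, an accessory subunit encoded on the X chromosome, at 373.29 and 330.11 TPM. These genes stood higher in replicate 1 than in replicate 2. The lowest were Ndufa4l2, a paralogue of Ndufa4 known as a hypoxia-induced gene, at 4.96 and 5.64 TPM, Ndufb4 at 47.19 and 51.08 TPM, and Ndufa11 at 55.29 and 46.45 TPM. The level of Ndufa11 rests on its length: the deposited table gives its single transcript 2661 nt, where GENCODE M21 gives 545 nt, a ratio of 4.883. It was the only 1 of 80 leading transcripts compared that was over 1.5 times as long as in M21.

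The 7 nuclear genes of the catalytic core of complex I, which hold the flavin and the iron-sulfur clusters or form the quinone site, had a median of 153.8 and 146.9 TPM. The 30 accessory genes had a median of 243.4 and 209.1 TPM. Core genes spanned a narrow range, from Ndufs1, the largest iron-sulfur subunit, at 107.94 and 99.95 TPM to Ndufv2 at 228.36 and 212.53 TPM. Median effective length, the length over which a fragment can start, was 938.4 nt for core and 544.9 nt for accessory genes in replicate 1, so the 2 classes also differ in length.

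The 4 genes of complex II spanned 1.818-fold in mean level. Sdhb, the iron-sulfur subunit, was highest at 312.14 and 282.19 TPM. Sdha, the flavoprotein, was at 169.89 and 180.88 TPM, and the membrane anchors Sdhc and Sdhd were at 172.33 and 173.85 TPM and at 164.27 and 162.73 TPM. Sdha and Sdhc changed places between the libraries, and Sdhd was lowest in both.

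In complex III the small subunits had a higher median than the core proteins and the Rieske protein. Uqcrq, Uqcr10 and Uqcrb led, with 449.33 and 387.0, 421.74 and 358.53, and 352.53 and 348.9 TPM. The lowest were Uqcrc2, a core protein, at 143.04 and 161.04 TPM, Uqcrfs1, the Rieske iron-sulfur protein, at 176.37 and 174.79 TPM, and Uqcrh, the hinge protein, at 294.63 and 269.61 TPM. The median of the 5 small subunits was 352.5 and 348.9 TPM, and that of the other 3 genes 176.4 and 174.8 TPM. These classes also differ in length, with a median effective length of 352.9 and 1528.6 nt in replicate 1.

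Complex V held the most abundant member. Atp5b, the catalytic beta subunit of the F1 head (chr10:128083273-128090391 in GRCm38), was at 1597.43 and 1588.51 TPM, from 42387 and 39190 counts. Atp5h, a peripheral stalk subunit, followed at 684.16 and 658.88 TPM, and Atp5a1, the alpha subunit of the head, at 674.3 and 656.19 TPM. The lowest were Atp5s, a coupling factor gene, at a mean of 11.9 ± 0.148 TPM (SD, n = 2), Atp5l at 120.36 and 106.29 TPM, and Atp5g2 at 135.22 and 116.31 TPM. The c ring is encoded by 3 genes that give the same mature protein, and of their summed TPM Atp5g3 held 57.22% and 55.6%, Atp5g1 30.74% and 32.12%, and Atp5g2 12.04% and 12.27%. The order of these 3 was the same in both libraries.

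In complex IV the highest genes were Cox6b1, Cox6c and Cox6a1, and the lowest was Cox8c, with no fragment in either library. Cox6b1 was at 861.35 and 713.83 TPM, Cox6c at 780.12 and 705.55 TPM and Cox6a1 at 670.92 and 587.93 TPM. Over all complexes 6 genes had a mean under 10 TPM. They were Ndufa4l2 and the complex IV genes Cox6a2, Cox7a1, Cox7b2, Cox8b and Cox8c, which are muscle, heart or testis isoforms.

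In each complex IV pair with a muscle or testis isoform, the widely expressed gene held nearly all of the TPM. Cox6a1, the liver-type isoform, was at 670.92 and 587.93 TPM and Cox6a2, the heart and muscle isoform, at 1.13 and 3.48 TPM, from 12 and 34 counts. Cox6a2 thus held 0.1681% and 0.5884% of the pair. The intervals of its share of counts, 0.1139 to 0.3475% and 0.4972 to 0.9684%, did not overlap between libraries. These intervals cover counting error only, not the spread between pools. Cox7a1, the heart and muscle isoform paired with Cox7a2, held 0.888% and 1.002% of the TPM, from 16 and 15 counts, and 0.3615% and 0.4072% of the pair's expected counts, which are not scaled by length.

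Cox8b, another heart and muscle isoform, had 0 and 3 counts against 5698 and 4552 for Cox8a, so its share of counts was at most 0.06737% in replicate 1 and lay between 0.0224 and 0.1935% in replicate 2. No count was assigned to Cox8c, a testis isoform, in either library, which allows up to 0.06737% and 0.08432% of the counts of the Cox8a and Cox8c pair. Cox7b2, a testis isoform, had 2 counts in each library, or 0.1057% and 0.1186% of the TPM of its pair with Cox7b. All 6 germ line markers examined were below 1 TPM. Cox6b2, also known from testis, stood above these, at 30.71 and 32.23 TPM from 237 and 225 counts, which is 3.443% and 4.32% of its pair with Cox6b1.

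Cox7a2l, a Cox7a-related gene whose protein takes part in joining complexes III and IV, held 24.22% and 25.97% of its sum with Cox7a2. Ndufa4l2 held 0.762% and 0.9668% of its sum with Ndufa4 in TPM, and a mean of 1.875% in expected counts. Cox4i2, the lung-type and oxygen-regulated isoform, whose symbol falls outside the rule, held 0.544% and 0.6012% of its pair with Cox4i1, which was at 751.43 and 707.67 TPM. Cox4i2 itself was at 4.11 and 4.28 TPM. For cytochrome c, the electron carrier itself, testis-type Cyct had 0 and 4 counts beside Cycs at 53.46 and 48.62 TPM.

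**Figure D2:**
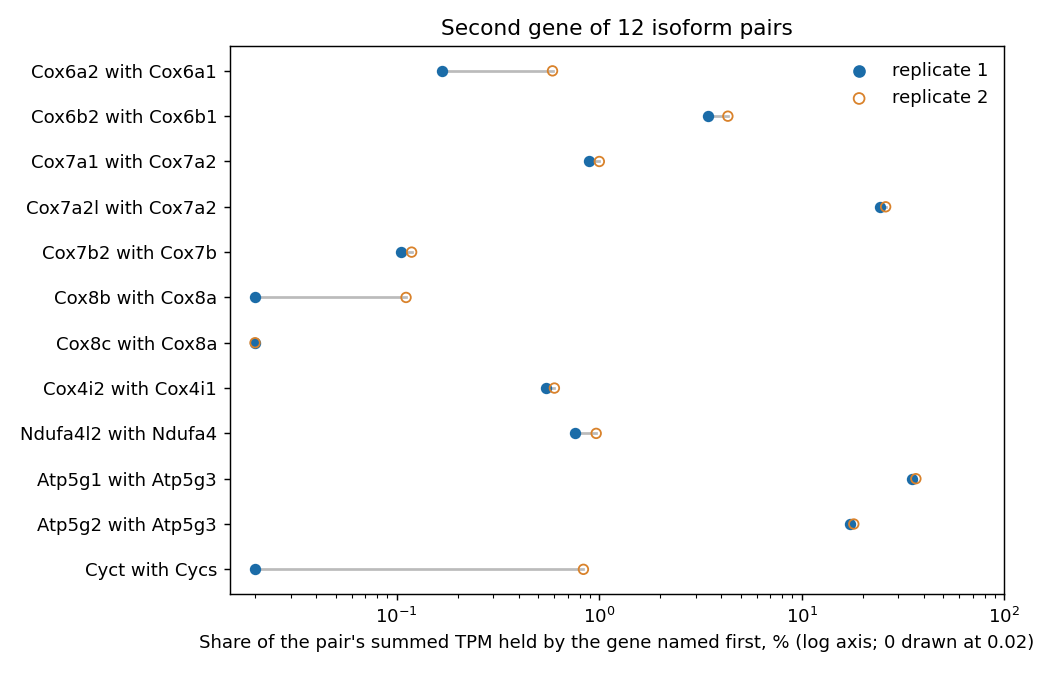
Percent of a pair's summed TPM (log axis, 0 drawn at 0.02) held by the gene named first on each line, in replicate 1 (filled) and replicate 2 (open). The shares run from 0 for Cox8c to 34.95 and 36.62% for Atp5g1, and Cox6a2, Cox8b and Cyct show the widest gaps between the libraries, all from 34 counts or fewer.

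Several members have processed pseudogene copies that took fragments in the deposited tables, which limits how their own levels can be read. Ndufb4, an accessory subunit of complex I, is the clearest case. Its copy Ndufb4c (chr15:73809507-73809896, minus strand, GRCm38) matches the coding sequence at 387 of 387 bases. The first 100 coding bases, common to both, are shown because no fragment lying wholly inside them can be given to one gene by its letters (Ndufb4 start at chr16:37654260-37654359, minus strand).
Ndufb4 and Ndufb4c: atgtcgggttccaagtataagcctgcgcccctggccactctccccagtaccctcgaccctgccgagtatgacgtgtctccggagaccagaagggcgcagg
The table gave Ndufb4c 254.08 and 249.53 TPM and Ndufb4 47.19 and 51.08 TPM. In Ndufb4 itself, 84.15% of the TPM in replicate 1 lay on a transcript annotated as a retained intron.

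Over all members, 53 of 82 shared no 100-nt stretch with another annotated gene, 29 shared some, 11 shared over 10% of their stretches and none over 50%. Atp5l, a membrane subunit of complex V at 120.36 and 106.29 TPM, shared sequence with the pseudogene Gm10221, which was listed at 626.07 and 527.1 TPM. Cox7c, at 515.23 and 513.67 TPM, shared some with Gm12338, listed at 641.82 and 646.33 TPM. Atp5g2 and Atp5g1 shared sequence with Gm10175, at 255.76 and 222.67 TPM, and Gm10039, at 149.44 and 125.17 TPM. The levels of these members, and the c ring shares above, are therefore uncertain. Some shared stretches came from overlapping genes, such as Mrpl47 with Ndufb5, and the strand setting of the libraries was not stated in the labels.

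At the level of transcripts, 81 members had TPM, 27 of them with 1 annotated transcript. Of the other 54, 53 had the same leading transcript in both libraries and 24 gave it over 90% in both. Ndufa10, an accessory subunit of complex I, was the exception, led by a retained-intron transcript with 28.24% in replicate 1 and by a coding transcript with 25.26% in replicate 2. The leading transcript held under 60% in at least 1 library for 8 members, Atp5j, Cox5b, Cox6b2, Cox7b, Ndufa10, Ndufb5, Ndufc1 and Ndufs1. In 6 members over 50% of the TPM in both libraries lay on transcripts annotated as non-coding, retained-intron or decay targets (Atp5f1, Atp5j, Cox5b, Ndufa10, Ndufa5 and Ndufb4). In Ndufa5 that share was 88.08% and 90.77%.

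The 2 libraries were then compared gene by gene. Of 79 members with 10 or more counts, 70 had a lower TMM-scaled count in replicate 2 and 9 a higher one, with a median log2 ratio of -0.14 (0.9101-fold). Over all 19209 genes tested the median was -0.0019. The two-sided exact binomial test allows for counting error only. At an adjusted p of 0.05 it called 47 members lower and 1 higher in replicate 2. Of all genes tested, 9.68% were called lower and 10.7% higher, and many of those tested stood at far lower levels than the members. Of the 1613 protein-coding genes whose mean level reached 100 TPM, members included, the binomial test called 447 lower and 291 higher. The edgeR exact test with a common dispersion, which adds the spread between the libraries, called 0 members in either direction, where it called 0.625% of all genes lower and 0.942% higher. Of the 79 members, 3 had an unadjusted edgeR p under 0.05, as did 1285 of all 19209 genes tested.

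Ndufa3, an accessory subunit of complex I, had the most negative ratio, with 328.88 and 230.83 TPM and a log2 ratio of -0.51 (edgeR adjusted p = 0.274). Uqcr11, a small subunit of complex III, was at 331.3 and 252.01 TPM with a ratio of -0.42 (edgeR adjusted p = 0.579). Ndufs7, a core subunit with an iron-sulfur cluster, and Ndufa2 had ratios of -0.36 and -0.31. The binomial test called these 4 and the edgeR test did not. At the other end, among members with a mean of at least 5 TPM, Ndufa4l2, Ndufb4, Sdhc and Cox6b2 had log2 ratios of 0.17, 0.06, 0.04 and 0.03, and neither test called them. By complex the median ratio was -0.14 for I, -0.04 for II, -0.13 for III, -0.09 for IV and -0.16 for V.

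**Figure D3:**
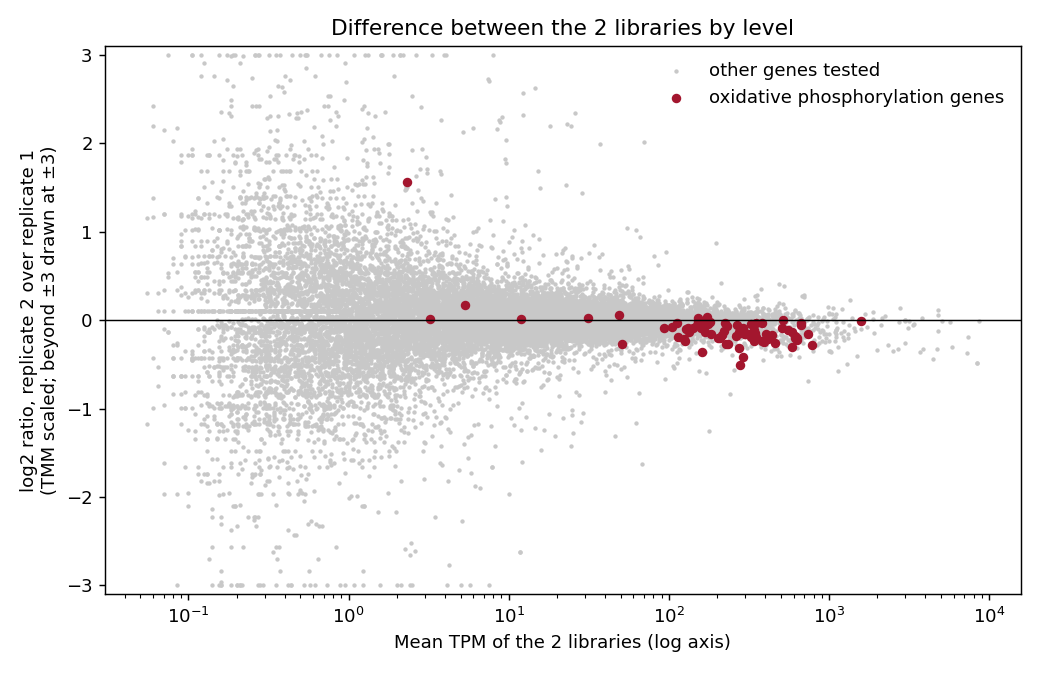
The log2 ratio of replicate 2 over replicate 1 (TMM scaled) against mean TPM (log axis) for the members (red) and all other genes tested (grey). Of 79 members 70 lie below 0, close to the cloud of other abundant genes, and Cox6a2 lies apart at 1.57.

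Transcript length moved with this difference. Among protein-coding genes with a mean of at least 100 TPM, those with an effective length under 500 nt had a median log2 ratio of -0.20 (93 genes), against -0.09 from 500 to 1000 nt (330 genes), -0.01 from 1000 to 2000 nt (606 genes) and 0.03 at 2000 nt or more (513 genes), members left out. The members in the same bins had medians of -0.19 (28 genes), -0.14 (28), -0.03 (12) and -0.05 (3). Under 500 nt the members and the other genes had nearly the same median, and in each longer bin the members' median was the lower one. The binomial test called 24 of the 28 members and 71 of the 93 other genes lower under 500 nt. From 500 to 1000 nt it called 19 of 28 and 152 of 330 lower. From 1000 to 2000 nt these counts were 3 of 12 and 129 of 606, and at 2000 nt or more 0 of 3 and 49 of 513. Over the 76 members at a mean of 10 TPM or more, the ratio and the effective length had Pearson's r of 0.469 and Spearman's rho of 0.491, a description across genes of the same 2 libraries. The part of length in the difference was not tested further. Markers of other cell types also moved between the libraries. The 6 erythroid markers summed to 10567.8 and 8221.78 TPM, with a median log2 ratio of -0.32 and 5 called lower by the binomial test. Of the 8 hindbrain markers 6 were called higher by that test, with a median ratio of 0.27, as were 3 of 5 markers of choroid plexus and ciliated epithelium, with a median of 0.23, and 2 of 6 pericyte markers, with a median of 0.12. The edgeR test called 0 genes of these 4 lists, and their part in the members' ratios was not tested.

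**Figure D4:**
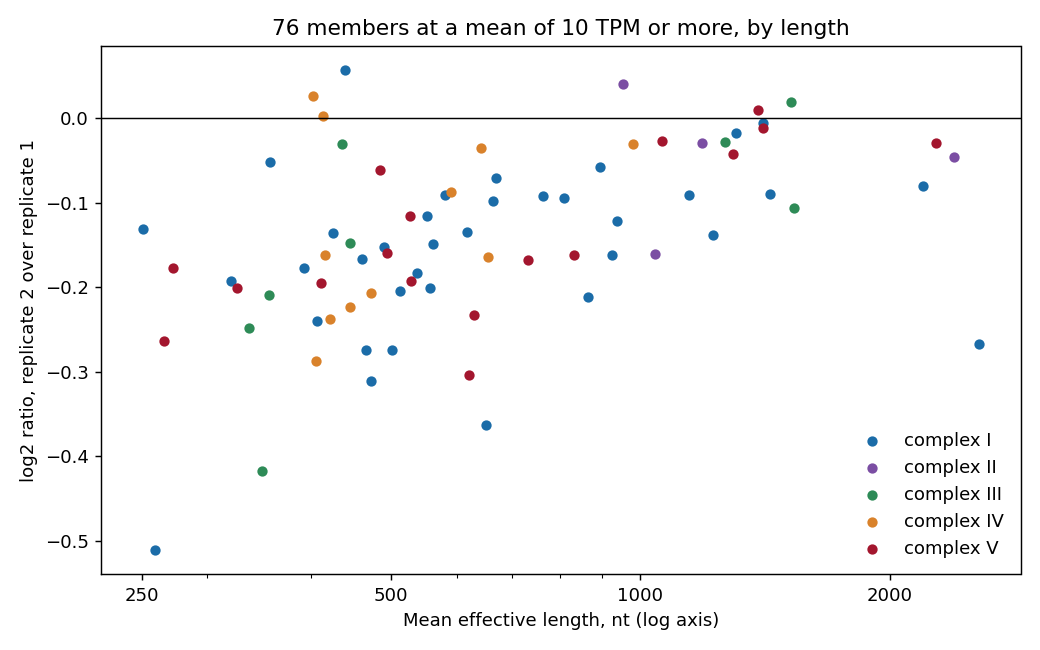
The log2 ratio of replicate 2 over replicate 1 against mean effective length in nt (log axis) for the 76 members at a mean of 10 TPM or more, coloured by complex. Members under 500 nt reach down to -0.51, and most members over 1000 nt lie near 0.

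Cox6a2 was the one member called higher in replicate 2 by the binomial test, with a log2 ratio of 1.57 (adjusted p = 0.00485). The edgeR exact test gave it an adjusted p of 0.0768. Skeletal muscle markers moved with it: 11 of 12 were called higher in replicate 2 by both tests, their summed level was 70.69 and 304.53 TPM and their median log2 ratio 2.10. Actc1, a muscle actin, went from 27.35 to 111.87 TPM and Tnnt1, a slow troponin, from 15.6 to 58.46 TPM, while Ckm, the muscle creatine kinase, was at 0.2 TPM in both. Heart markers summed to 11.46 and 24.78 TPM, with a median log2 ratio of 0.07. Of these 6, both tests called 2 higher, Tnnt2 and Myh7, with ratios of 1.82 and 1.18. Myh6, Tnni3, Nppa and Myl7 had ratios of 0.10, 0.04, -0.18 and -0.57, and neither test called them. The part of muscle RNA in the Cox6a2 values was not tested. Cox7a1, also a heart and muscle isoform, had a log2 ratio of 0.01.

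Genes that build the complexes were expressed at lower levels than the subunits. The 48 assembly factors matched had a median of 31.79 and 32.22 TPM, and 47 of them reached 1 TPM in both libraries. Uqcc2, which acts in complex III assembly, was highest at 254.31 and 212.19 TPM, followed by the complex IV factors Coa3 at 171.07 and 157.54 TPM and Cox14 at 127.39 and 122.48 TPM. Pet117 was lowest, at 1.11 and 0.19 TPM. Their median log2 ratio was 0.0027, with 6 of the 48 called lower and 1 higher by the binomial test and 0 by edgeR. Of all genes tested, the binomial test called 9.68% lower and 10.7% higher. The 12 regulators of mitochondrial biogenesis had a median of 24.0 and 26.3 TPM. They were led by Tfam, which packages mitochondrial DNA and acts in its transcription, at 56.83 and 67.57 TPM. Gabpb1 followed at 53.04 and 57.27 TPM and Nrf1 at 53.34 and 50.09 TPM. Ppargc1b was lowest at 1.53 and 1.78 TPM.

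The 13 subunits encoded in mitochondrial DNA had a median of 1131 and 896.6 TPM and a median log2 ratio of -0.23, with 11 called lower by the binomial test and 0 by edgeR. Of 4 nuclear subunit genes left out by the naming rule, Cox4i1 and Cox4i2 are given above with their pair, Ndufab1 was at 455.96 and 414.68 TPM and Cyc1 at 255.49 and 247.34 TPM.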

How the data were processed

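Total RNA sequencing of 2 pools of e12.5 hindbrain started from 10 ng of RNA longer than 200 nt, with ERCC spike-ins, per the labels. The authors deposited expected counts, TPM and FPKM per gene, and expected counts, TPM and the percent of a gene's TPM per transcript, on mm10 with GENCODE M4, per the deposited notes. Aligner and quantifier were not given in the sources used here. TPM is scaled over all entries, spike-ins included, which held 8.387% and 10.86% of TPM. Numbered entries that name no gene held 0.000107% and 0.000114% of counts and were left out of tests. Names and coordinates came from GENCODE M21, matched on the Ensembl identifier, and promoters from RefSeq (GRCm38.p6).

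Expected counts were rounded, and the 19209 genes with 10 or more summed counts were scaled by TMM (edgeR 4.0.16, R 4.3.3). The main test was the two-sided exact binomial test (scipy 1.17.1) with Benjamini-Hochberg adjustment over all genes and a threshold of 0.05, and beside it stood the edgeR exact test with a common dispersion (coefficient of variation 9.02%), estimated from the same 2 libraries. Ratios used 0.5 added to each count. On simulated data with spread between libraries, the binomial test also called unchanged genes. A count of 0 allows up to 3 counts, which is 0.158 and 0.171 TPM at 1 kb. Without molecular identifiers, amplified fragments cannot be counted as separate molecules, so intervals cover counting error only. No outlier test applies to 2 samples.

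Named genes are the 3 highest and 3 lowest of each complex, the genes of the isoform pairs, members called by edgeR, the 4 largest ratios in each direction at a mean of 5 TPM or more, members with an unstable leading transcript, and leading and lowest genes of each list. Only some of the genes that the rule takes from the lists are reported here. The members and lists were chosen with earlier results of these data known. The promoters printed were settled after their motif matches had been seen, by a rule that uses levels and not matches, and copies and transcript lengths were examined after seeing the data.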

Additional observations from a re-analysis of the deposited data

How the results depend on the processing

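No paired analysis was possible because there is 1 group. The complex medians kept their order, V, III, IV, I and II, except under 2 alternatives that put IV above III: leaving out members under 1 TPM raised IV to 379.5 TPM, and M21 transcript lengths raised it to 301.2. In FPKM, another unit, the medians of I to V were 123.7, 103.4, 175.3, 166.4 and 239.4. TPM rescaled over Ensembl genes gave 192.9, 326.2, 310.0 and 445.7 for II to V. Both units multiply all genes of a library by 1 factor, so they cannot change the order within a library. Full lengths gave 180.6 for II (this and the M21 lengths were chosen after seeing the data). Leaving out 1 library gave 190.4 to 225.9 for I, 171.1 to 177.4 for II, 274.7 to 315.3 for III, 269.6 to 290.9 for IV and 379.9 to 426.1 for V, which with 2 libraries lies within 1 SD by construction. The share held by the members was 2.671% over Ensembl genes, 1.015% of expected counts, and 2.301 to 2.528% with 1 library. Members at 1 TPM numbered 79 with either library alone. Spike-in scaling shifted all genes by -0.34 log2, which moved the members' median to -0.472 and the members called lower to 76. Because it shifts every gene alike, the members' distance from the median of all genes stayed at -0.134 by construction. The edgeR test called 0 higher and 0 lower. Of 60 alternative values of the isoform pairs, 8 moved by more than the spread between libraries. Those with 1 library left out and those in FPKM could not move by that much, by construction. Members without a shared stretch, also chosen after seeing the data, had a median log2 ratio of -0.16 (50 genes). Depth limits Cox6a2, Cox7a1, Cox7b2, Cox8b and Cox8c most, and with 2 libraries the spread between pools is poorly known.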
